A study of Homo sapiens with 30 samples.

Results

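The chromatin of posterior neural ectoderm (pNE), sampled on day 2, was compared with that of the cells obtained from it by 2 further days in hindbrain medium (pNE_H, day 4). Both populations came from wild-type H1 cells, an established line of human embryonic stem cells. Pluripotent cells were first turned into definitive ectoderm (DE) for 1 day, with A8301, trametinib, C59 and LDN193189. The pNE medium of the second day held A8301 (1 µM), LDN193189 (100 nM), the retinoic acid receptor agonist TTNPB (50 nM), FGF2 (20 ng/mL), the tankyrase inhibitor XAV939 (1 µM) and thiazovivin (1 µM). Both groups therefore carry the same day 2 treatment, and pNE_H adds the hindbrain medium, whose composition is not given in the sources used here. The labels give a plating density of 37500 cells per square cm for cells taken on day 2. They give 150000 for pNE cells grown on to day 4, in hindbrain medium and in the other media alike. Time in culture, medium and density thus differ together and cannot be told apart.

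Accessible DNA was measured with OmniATAC-seq, an assay based on the transposase Tn5, which cuts and tags open chromatin. The comparison uses 6 of the 30 libraries of the series, 3 per group, which were deposited as 1 peak list per group. The peaks of all 10 lists of the series on chromosomes 1 to 22 were merged wherever they shared at least 1 bp, and a list was called open at a merged region where it had a peak. Of 476170 merged regions, 316664 were open in pNE or pNE_H. A region is called gained when it was open in pNE_H and not in pNE, lost in the reverse case, and kept when it was open in both. The lists hold no score and no value per replicate, and read depth is unknown, so a difference below compares 2 lists and has no replicate error and no test. The pNE list had 199638 peaks (83.2 Mb in all) and pNE_H had 302355 (125 Mb), the longest of the 10 lists and 1.51 times the length of the pNE list. Widths of kept regions, shares by HOX paralog group and the record of regions gained in the HOX clusters were measured in the deposited lists only. Most other counts and shares were repeated at equal list size, because of this difference in length. For this pNE_H was reduced to its 199638 widest peaks, and the other lists longer than pNE were treated alike. This removed pNE_H peaks narrower than 205 bp while pNE kept peaks down to 124 bp, so narrow gained regions disappear and narrow pNE peaks can turn into losses by construction.

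In the vertebrate embryo the hindbrain forms behind the midbrain and is divided into rhombomeres, which differ in the HOX genes they express. HOX genes lie in 4 clusters, HOXA to HOXD, and the order of the genes along each cluster follows the order of their expression along the body axis. Retinoic acid binds RAR-RXR receptor pairs on direct repeats in DNA, activates low-numbered HOX genes in the hindbrain, and induces its own receptor RARB and its own breakdown enzyme CYP26A1. OTX2 and SIX3, by contrast, mark the forebrain and midbrain.

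The sequences below are promoters from RefSeq (GRCh38.p14), each the 250 bases before a transcription start, read 5′ to 3′. RARB and CYP26A1 are shown because their promoters hold a retinoic acid response element with a 5 bp spacing, in capitals. Every list had a peak over the RARB element, and pNE but not pNE_H had one over the CYP26A1 element. HOXA7, FGFR2 (an internal start), TFAP2A and PAX6 (an internal start) are the 4 listed promoters that were gained, and capitals mark the bases inside the pNE_H peak. NANOG is the listed promoter that was lost, and capitals mark the bases inside the pNE peak. NANOG and the pair with the element were chosen after their values were seen.
RARB, chr3:25428013-25428262 (+ strand): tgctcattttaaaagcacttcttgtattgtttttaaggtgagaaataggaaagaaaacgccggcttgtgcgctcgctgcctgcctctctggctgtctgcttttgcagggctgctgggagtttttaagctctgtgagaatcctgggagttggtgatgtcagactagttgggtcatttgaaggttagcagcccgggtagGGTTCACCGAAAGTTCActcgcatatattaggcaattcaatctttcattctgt
CYP26A1, chr10:93073643-93073892 (+ strand): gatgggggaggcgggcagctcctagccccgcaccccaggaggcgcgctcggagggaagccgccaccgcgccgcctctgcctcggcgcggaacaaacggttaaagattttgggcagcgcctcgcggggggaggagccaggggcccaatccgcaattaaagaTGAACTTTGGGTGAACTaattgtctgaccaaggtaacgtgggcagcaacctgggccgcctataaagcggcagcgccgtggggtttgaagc
HOXA7, chr7:27156676-27156925 (- strand): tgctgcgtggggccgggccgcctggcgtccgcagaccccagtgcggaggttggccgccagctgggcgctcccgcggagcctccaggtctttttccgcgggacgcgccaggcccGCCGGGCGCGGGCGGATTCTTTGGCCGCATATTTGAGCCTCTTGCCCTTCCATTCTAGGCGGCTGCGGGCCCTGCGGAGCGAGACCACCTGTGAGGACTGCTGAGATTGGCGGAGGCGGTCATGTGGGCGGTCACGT
FGFR2, chr10:121531315-121531564 (- strand): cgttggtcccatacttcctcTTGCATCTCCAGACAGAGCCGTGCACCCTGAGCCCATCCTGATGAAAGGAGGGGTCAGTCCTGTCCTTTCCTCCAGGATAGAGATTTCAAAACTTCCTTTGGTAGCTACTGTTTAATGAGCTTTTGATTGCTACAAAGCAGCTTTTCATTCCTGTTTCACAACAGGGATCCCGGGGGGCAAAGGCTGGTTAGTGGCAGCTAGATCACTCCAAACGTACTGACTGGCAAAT
TFAP2A, chr6:10419660-10419909 (- strand): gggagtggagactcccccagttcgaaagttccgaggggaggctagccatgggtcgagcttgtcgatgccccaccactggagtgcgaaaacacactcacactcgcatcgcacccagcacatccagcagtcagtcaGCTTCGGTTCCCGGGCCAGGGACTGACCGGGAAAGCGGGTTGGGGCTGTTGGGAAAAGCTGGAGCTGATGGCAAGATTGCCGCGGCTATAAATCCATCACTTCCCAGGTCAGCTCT
PAX6, chr11:31807623-31807872 (- strand): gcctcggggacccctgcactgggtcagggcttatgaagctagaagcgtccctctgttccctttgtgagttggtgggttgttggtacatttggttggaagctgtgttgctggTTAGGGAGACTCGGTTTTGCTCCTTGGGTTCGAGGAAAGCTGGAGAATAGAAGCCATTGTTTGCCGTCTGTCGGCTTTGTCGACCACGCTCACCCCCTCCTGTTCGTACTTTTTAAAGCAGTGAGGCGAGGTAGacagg
NANOG, chr12:7789152-7789401 (+ strand): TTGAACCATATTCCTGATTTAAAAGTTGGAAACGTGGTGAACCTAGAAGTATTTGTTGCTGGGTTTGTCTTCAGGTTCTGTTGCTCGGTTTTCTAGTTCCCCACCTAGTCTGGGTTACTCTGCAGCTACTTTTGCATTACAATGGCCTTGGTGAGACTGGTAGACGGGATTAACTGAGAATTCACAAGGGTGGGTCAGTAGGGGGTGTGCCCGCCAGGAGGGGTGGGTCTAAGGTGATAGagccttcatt

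From pNE to pNE_H, 130239 regions were gained, 26287 were lost and 160138 were kept. These are 41.1%, 8.30% and 50.6% of the regions open in either list, a Jaccard index (kept over open in either) of 0.506. Of the pNE regions 14.1% were lost, and of the pNE_H regions 44.9% were gained. At equal list size 60654 regions were gained (24.5%), 52892 were lost (21.4%) and 133551 were kept, with a Jaccard index of 0.540. The excess of gains over losses in the deposited lists thus became a near balance, which equal list lengths fix by construction. Within bulk samples, more cells with an open site and a more open site per cell cannot be told apart.

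**Figure D1:**
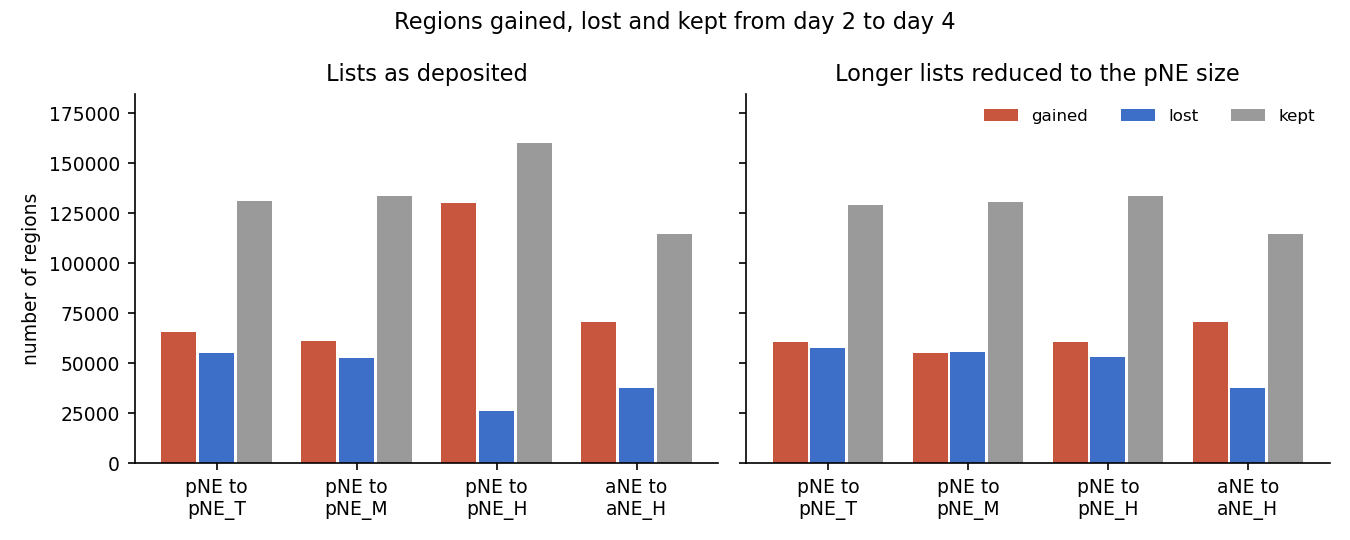
Number of merged regions gained, lost and kept from day 2 to day 4 for 3 media starting from pNE and for aNE into hindbrain medium, with the lists as deposited (left) and with lists longer than pNE reduced to its size by width (right); each bar is 1 comparison of 2 lists and has no error. As deposited pNE to pNE_H has 130239 gains, and at equal size 60654, beside 60573 for pNE_T and 55052 for pNE_M.

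Gained regions rested on narrow peaks. Their median peak width in pNE_H was 196 bp (middle 50% from 141 to 302 bp), that of lost regions in pNE 177 bp, and that of kept regions in pNE 333 bp. Only 8.58% of gained regions had a peak of 500 bp or wider, against 31.4% of kept regions, but this still left 777 gained regions with a peak of 1 kb or more against 12 such lost regions. Kept regions also widened in the deposited lists, the only ones in which this was measured. The bases covered by peaks had a median of 346 bp in pNE and 444 bp in pNE_H, 25.3% of kept regions were more than 1.5 times wider in pNE_H, and 8.51% were more than 1.5 times narrower. The median gained region lay 4.32 kb from the nearest pNE peak, and 10.3% lay within 500 bp of one, beside existing open sites. For lost regions the median distance to the nearest pNE_H peak was 2.27 kb, in a list with more peaks. At equal size the medians were 4.62 kb for gained and 3.46 kb for lost regions.

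The gained share of open regions was lowest near gene ends, although 56.2% of gained regions lay inside genes (58.7% of lost and 51.8% of kept regions). A gene end (the start or the end of an annotated gene) lay within 1 kb of 7.39% of gained regions (95% Wilson interval 7.25% to 7.53%, which covers the sampling of regions only), of 8.72% of lost regions and of 17.8% of kept regions. The share of open regions that was gained went from 23.8% within 1 kb of a gene end to 43.7% at 10 to 50 kb and 53.3% beyond 200 kb. At equal list size 4599 of 35329 regions within 1 kb were gained, 26.7% at 10 to 50 kb and 34.9% beyond 200 kb, while the lost share was 13.2%, 22.7% and 18.4%. Long genes showed the same gradient. Around protein-coding genes under 50 kb 28.7% of regions were gained, and around the 303 genes over 500 kb 46.4% (15.2% and 29.1% at equal size, with 19.6% and 21.6% lost), where a region counts for each gene whose window holds it. By chromosome the gained share was lowest on 19, at 26.9%, and highest on 4, at 46.8%.

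**Figure D2:**
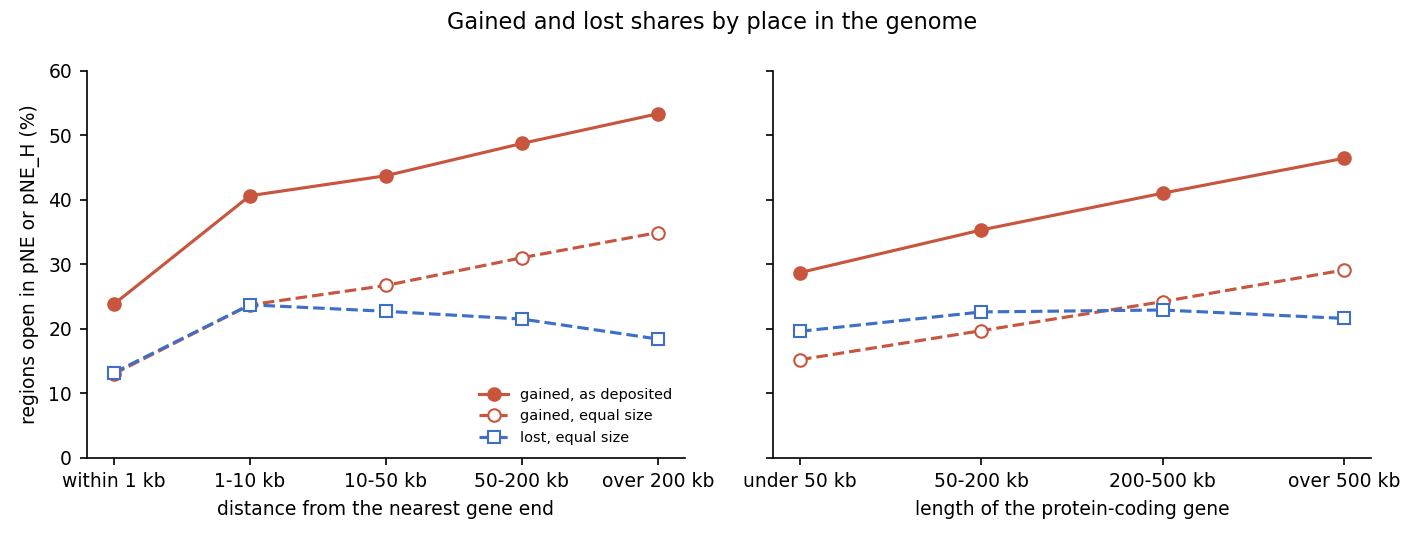
Share (%) of the regions open in pNE or pNE_H that were gained (circles) or lost (squares), by distance of the region from the nearest gene end (left) and by the length of the protein-coding gene in whose 50 kb window it lies (right). The gained share as deposited goes from 23.8% within 1 kb to 53.3% beyond 200 kb, and the open circles, at equal size, end at 34.9%.

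Most gained regions had been open at no earlier stage. Only 20.8% were open in pluripotent cells (hPSC) or DE (17.9% at equal size), and 77.8% were open in none of hPSC, DE and anterior neural ectoderm (aNE), the other day 2 population. The aNE medium lacked TTNPB, FGF2 and XAV939 and held C59 (1 µM), and aNE_H cells, which were aNE moved to hindbrain medium, were plated at 75000 cells per square cm, so that day 2 medium and density differ together between aNE_H and pNE_H. The aNE_H list had 15.0% of the gained regions open (14.8% to 15.2%), against 17.5% in aNE_M from midbrain medium and 13.1% in aNE_T from telencephalon medium. At equal size these shares were 18.1% in aNE_H, 18.2% in aNE_M and 14.9% in aNE_T. Of gained regions 38.7%, or 50360, were open in pNE_H alone among the 10 lists, and at equal size 28.8%. Lost regions had a longer record. DE had 51.4% of them open and hPSC 41.1%, and 23.8% were open in hPSC, DE and aNE alike. Kept regions were widely shared, and 49.2% were open in all 10 lists.

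Regions closed in pNE give the same comparison from the other side. Of all regions closed in pNE, 44.9% were gained in pNE_H (25.9% at equal size). Of those open in hPSC 24.3% were gained, of those open in DE 24.6%, of those open in aNE_M 51.5% and of those open in aNE_H 49.9% (11.1%, 12.6%, 29.6% and 28.1% at equal size). The overall share includes the 50360 regions open in pNE_H alone, which are gained by definition. Of the regions closed in pNE and open in at least 1 of the other 8 lists, 33.4% were gained (19.9% at equal size). Beside that value the shares for hPSC and DE were lower, the share for aNE was close (34.3%, and 17.9% at equal size), and those for aNE_T (40.3%, and 21.4%), aNE_M and aNE_H were higher.

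**Figure D3:**
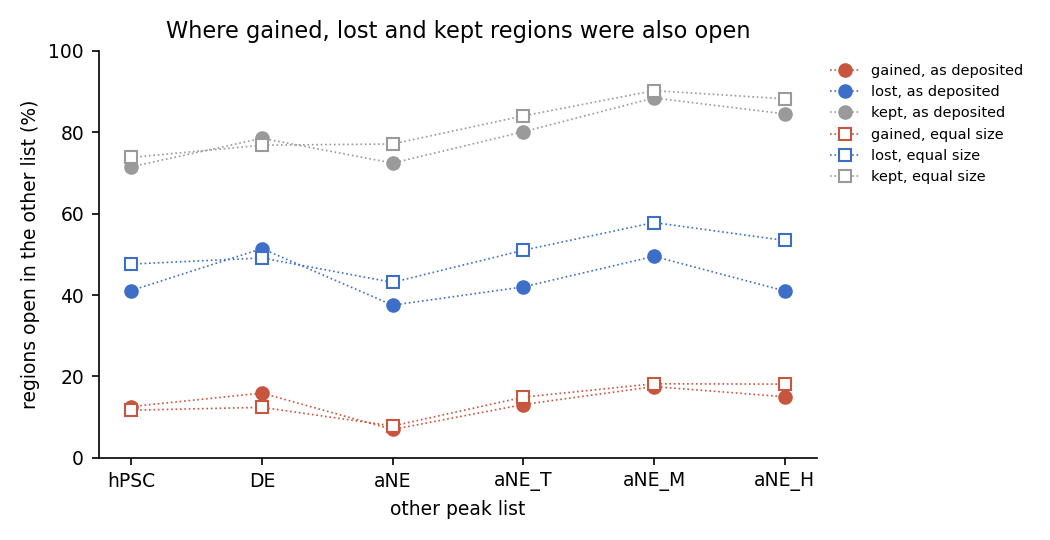
Share (%) of gained, lost and kept regions that were also open in each of 6 other peak lists, as deposited (filled circles) and at equal list size (open squares). Gained regions lie between 6.97% in aNE and 17.5% in aNE_M, lost regions between 37.5% and 51.4%, and kept regions between 71.5% and 88.4%, as deposited.

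Genes were described by the regions in a window that reaches 50 kb past the gene on each side. Over 18682 protein-coding genes with an open region, 85.8% had more gained than lost regions and 6.41% had more lost, so as deposited nearly every gene list gained. At equal size 33.0% of 18655 genes had more gained and 50.1% more lost, and the lists parted against that background. The HOX genes all had more gained than lost regions as deposited (39 of 39), and 31 of 39 did so at equal size (79.5%), with 5 having more lost. Their gained share of regions was close to that of all protein-coding genes (38.2% against 37.9%, and 22.2% against 21.8% at equal size). Their lost share was lower, at 4.82% against 8.73%. At equal size 12.6% of the regions around HOX genes were lost (25 of 198), against 39659 of 180450 around all genes. The windows of neighbouring HOX genes overlap, so the 39 genes rest on 95 gained and 12 lost regions in 4 clusters and are not independent. When pNE_H was reduced to equal size by leaving out peaks at even steps along the genome, whatever their width, 17 of 39 HOX genes had more gained and 14 more lost, against 26.5% and 60.9% of all genes. The HOX count thus depended on how the list was shortened.

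**Figure D4:**
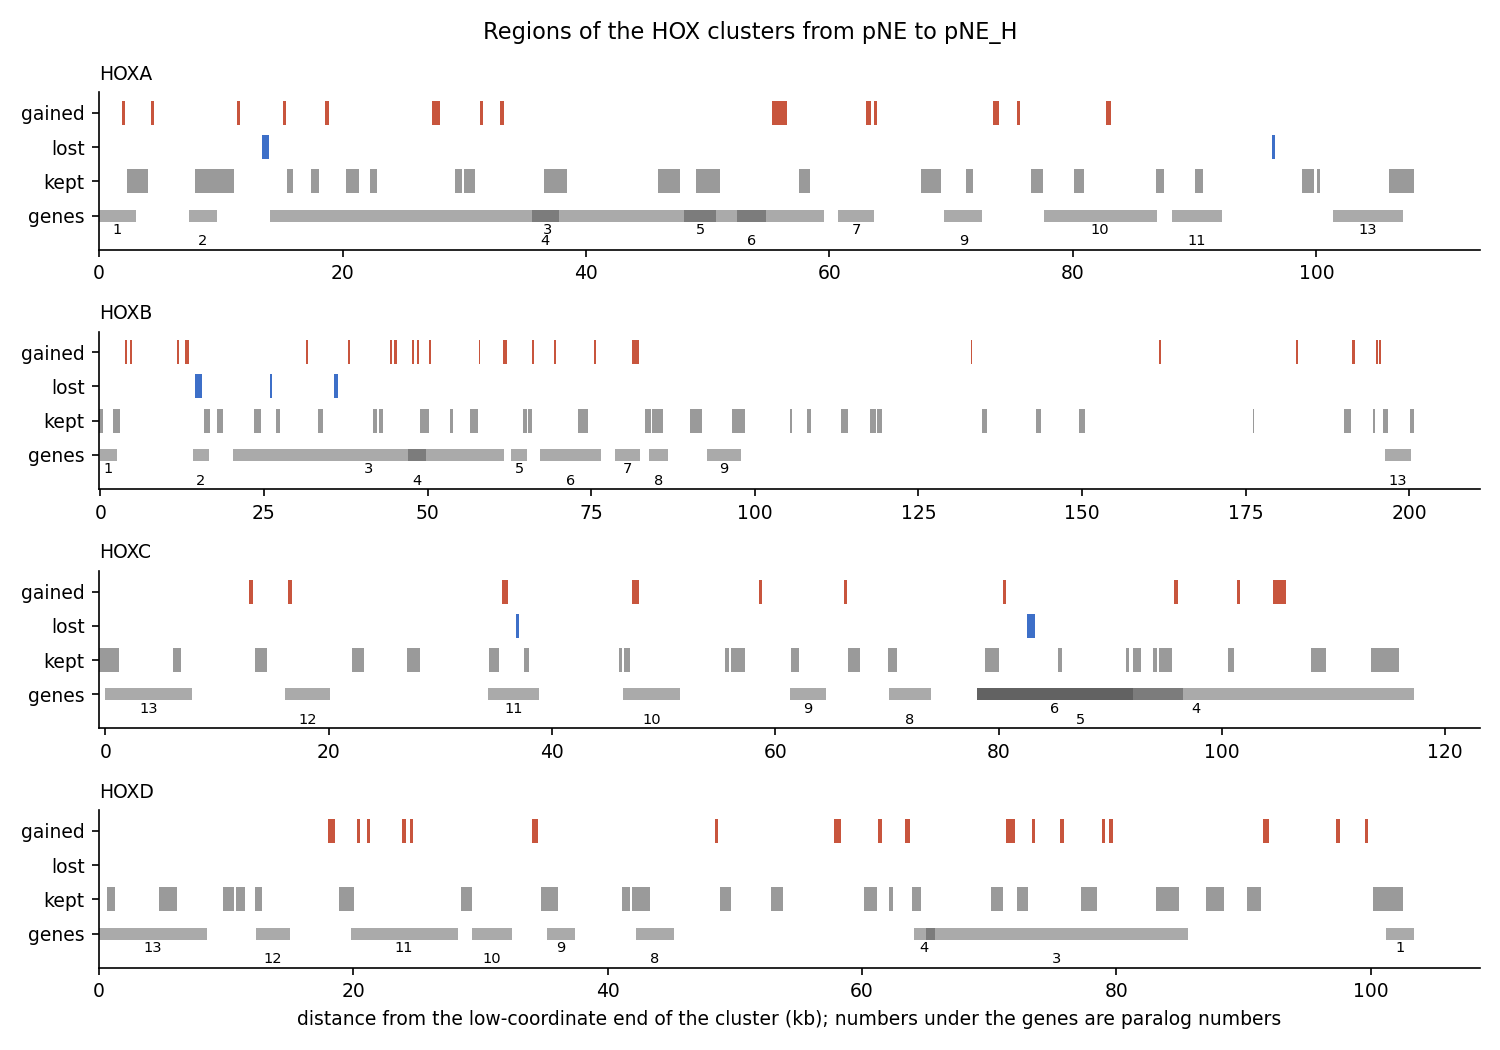
Maps of the HOXA, HOXB, HOXC and HOXD clusters, with regions gained, lost and kept from pNE to pNE_H (as deposited) above the genes; the x axis is the distance in kb from the low-coordinate end of each cluster and numbers under the genes are paralog numbers. HOXD shows 18 gained and no lost regions, and 13 of the 23 regions gained in HOXB lie at paralog groups 1 to 4.

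As deposited, each HOX cluster gained more regions than it lost. So did chromosomes 1 to 22 together, with 41.1% of open regions gained and 8.30% lost. HOXD (chromosome 2, 176087487 to 176190907) had 18 gained, 0 lost and 22 kept regions, and its bases inside peaks went from 13943 in pNE to 21395 in pNE_H. HOXB (chromosome 17, 48528526 to 48728750) had 23 gained, 3 lost and 33 kept, with 16416 and 27444 bases in peaks. HOXA (chromosome 7, 27092993 to 27200091) had 14 gained, 2 lost and 21 kept, with 14746 and 20768 bases, and HOXC (chromosome 12, 53938831 to 54056030) had 10 gained, 2 lost and 23 kept, with 11278 and 16594. The ratio of pNE_H to pNE was 1.53 in HOXD, 1.67 in HOXB, 1.41 in HOXA and 1.47 in HOXC, and the whole lists held 125 Mb and 83.2 Mb. The pNE_H value was the highest of the 10 lists in each of HOXB, HOXC, HOXD and HOXA. It was also the highest over the whole lists, where DE came next with 90.7 Mb. In the clusters the next highest were pNE_M at 17730 bases in HOXA, 23479 in HOXB and 19024 in HOXD, and hPSC at 14279 in HOXC. At equal list size HOXB had 12 gained and 5 lost, HOXD 10 and 2, HOXA 5 and 2, and HOXC 5 and 7. The direction of the region counts thus held in HOXA, HOXB and HOXD and turned in HOXC. Bases inside pNE_H peaks at equal size were 19392 in HOXA, 25357 in HOXB, 14528 in HOXC and 19804 in HOXD. Each stayed above its pNE value, after a reduction that keeps the widest peaks.

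The shares that follow come from the deposited lists and were not repeated at equal size. Over all regions open in pNE or pNE_H the gained share was 41.1%. By place along the clusters, 45.2% of the regions at paralog groups 1 to 4 were gained (33 gained, 5 lost, 35 kept). The share was 36.7% at groups 5 to 8 and 30.9% at groups 9 to 13, over the 4 clusters together. This order held within HOXB (46.4%, 40.0% and 28.6%) and in none of the others, with 42.1%, 3 of 5 regions and 23.1% in HOXA, 20.0%, 30.0% and 30.0% in HOXC and 52.4%, 20.0% and 42.9% in HOXD. Of the 65 regions gained in the clusters, 26 had been open in hPSC or DE and 9 were open in aNE_H. Another 12 were open in pNE_H alone, 6 of these in HOXA. Over all gained regions the shares were 20.8% for hPSC or DE, 15.0% for aNE_H and 38.7% for pNE_H alone. The widest gained HOX region was in HOXA, in a long HOXA3 transcript near HOXA6 (chromosome 7, 27148309 to 27149516), where pNE_H had a peak of 878 bp, pNE_M was also open, and the other 8 lists had none. The widest in HOXD lay in HOXD3 (176158850 to 176159543, peak of 625 bp), open also in aNE_M and pNE_M. In HOXB it lay near HOXB2 (48541475 to 48542146, 588 bp) and in HOXC in HOXC11 (53974365 to 53974897, 382 bp), both open in 6 lists. The lost HOX regions included wide sites. A 712 bp pNE peak in HOXB2 (48543066 to 48544044) was open in 8 lists and absent from pNE_M and pNE_H, and a 363 bp peak between HOXA2 and HOXA3 (27106363 to 27106951) was open in 9 lists, every list except pNE_H.

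Of 19 hindbrain identity genes, 18 had more gained than lost regions as deposited, and 10 did so at equal size (52.6%, against 33.0% of all genes) with 6 having more lost (31.6%, against 50.1%). As deposited the share of all genes was 85.8%. TSHZ1, a zinc finger gene, had the highest gained share of those named here, with 31 gained, 1 lost and 9 kept regions (16 and 1 at equal size). Its window held 11 peaks in pNE, 21 in pNE_T, 28 in pNE_M and 41 in pNE_H, and from 8 to 15 in the other 6 lists. MEIS2, a HOX cofactor, had 33 gained and 5 lost regions (17 and 13). EGR2, which marks rhombomeres 3 and 5, had 3 gained and 2 lost, and at equal size 0 gained and 4 lost. GBX2, of the anterior hindbrain, had 9 gained and 6 lost, and 3 and 9 at equal size, and FGF3 had 2 and 2, then 0 and 6. At equal size the members thus ranged from 16 gained regions at TSHZ1 to 0 at EGR2 and FGF3.

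Of 20 retinoic acid pathway genes, 19 had more gained regions as deposited (85.8% of all genes did). At equal size 9 had more gained (45.0%, against 33.0%) and 11 more lost (55.0%, against 50.1%). RARB, the receptor gene that retinoic acid induces, carried much of the list, with 82 gained, 8 lost and 50 kept regions (38 and 15 at equal size) in a 769 kb gene. Its window held 60 peaks in pNE and 137 in pNE_H, with 85 in pNE_T, 81 in pNE_M and from 38 to 57 in the other 6 lists. ALDH1A1, a retinaldehyde dehydrogenase, had 13 gained and 0 lost regions (8 and 1). CYP26A1, the breakdown enzyme, had 7 gained and 2 lost (2 and 3). The RARB promoter printed above was open in every list, with 1055 bases of its region inside pNE peaks and 1177 inside pNE_H peaks, against 578 to 701 in hPSC, DE, aNE, aNE_T and aNE_H and 885 in aNE_M. The pNE_T and pNE_M lists had 1248 and 1213. The RARB element lies 53 bases before the start. The CYP26A1 element lies 90 bases before the start. Peaks of DE, aNE, pNE and aNE_T covered all 250 printed bases there, while those of pNE_H, pNE_M and aNE_H covered 0, and those of hPSC, pNE_T and aNE_M covered 106, 92 and 80 without reaching the element. The merged region was kept through a pNE_H peak of 1488 bp that begins after that start. Over that region the covered bases were 1068 in pNE and 1488 in pNE_H, with 904 to 1774 in the other 8 lists.

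Forebrain and midbrain factors had the lowest gained share of the 9 lists, 24.6% as deposited and 11.3% at equal size, against 37.9% and 21.8% around all genes. Most of these factors have genes under 50 kb. Around all protein-coding genes of that length the gained shares were 28.7% and 15.2%, closer to those of the list. The part of gene length in the gap was not tested. At equal size 0 of 20 had more gained than lost regions (33.0% of all genes did) and 16 had more lost (80.0%, against 50.1%). Their lost share at equal size was 21.0%, where all genes had 39659 of 180450 regions lost and neural progenitor genes 22.1%. OTX2 had 6 gained and 1 lost region, and 1 and 4 at equal size. SIX3 had 5 and 1, then 3 and 5. With peaks left out at even steps the count was again 0 of 20, with 19 having more lost (all genes 26.5% and 60.9%). With all lists at the length of the shortest list it was 3 of 20 (15.0%, against 32.3% of all genes).

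Neural progenitor and proneural genes resembled the forebrain list, with 26.2% of regions gained (12.5% at equal size). At equal size 4 of 19 genes had more gained (21.1%, against 33.0% of all genes) and 12 more lost (63.2%, against 50.1%). SOX2 had 9 gained and 1 lost, and 4 and 3 at equal size, and PAX6 had 8 and 2, then 2 and 6. Pluripotency genes had the highest lost share, 12.4% as deposited and 26.6% at equal size, where all genes had 8.73% and 39659 of 180450 regions. At equal size 2 of 15 had more gained (13.3%, against 33.0% of all genes) and 12 more lost (80.0%, against 50.1%). POU5F1, the core pluripotency factor, had 0 gained, 2 lost and 4 kept regions. LIN28B, a pluripotency-associated RNA-binding protein gene, had 16 gained and 6 lost as deposited, and 7 and 15 at equal size. Among FGF feedback genes DUSP6 had 16 gained and 2 lost (9 and 3) and SPRY2 had 13 and 1 (5 and 1). Others did not keep an excess of gains at equal size. SPRY1 had 7 and 1 (3 and 3), SPRY4 had 7 and 2 (2 and 6) and SPRED1 had 12 and 0 (7 and 9). Of the 20 WNT and FGF response genes 19 had more gained as deposited, where 85.8% of all genes did. Among these 20 genes 10 had more gained at equal size (33.0% of all genes did) and 7 more lost (35.0%, against 50.1%).

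Markers of cells outside the neural tube were measured in the same way. Neural crest and surface ectoderm genes had 35.8% of regions gained and 6.88% lost (37.9% and 8.73% around all genes). At equal size 7 of 16 genes had more gained and 7 more lost (43.8% each, against 33.0% and 50.1% of all genes). TFAP2A had 12 gained and 1 lost (8 and 1) and SNAI2 had 13 and 1 (8 and 1), while ETS1 had 8 and 11 (5 and 20). Summed over the list's genes, windows held 280 peaks in pNE and 393 in pNE_H. Mesoderm and endoderm genes had 29.0% gained and 7.81% lost, with 217 and 266 peaks. The whole pNE_H list was 1.51 times the length of the pNE list. A peak within 1 kb of a gene end was present for 15 of 16 crest and surface genes in pNE and all 16 in pNE_H, for 14 of 14 mesoderm and endoderm genes in both, and for 13 of 15 pluripotency genes in both. None of these lists was closed in either population, so peaks at these gene ends do not separate the labelled cell type from others. The part of other cell types in the gains was not tested.

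**Figure D5:**
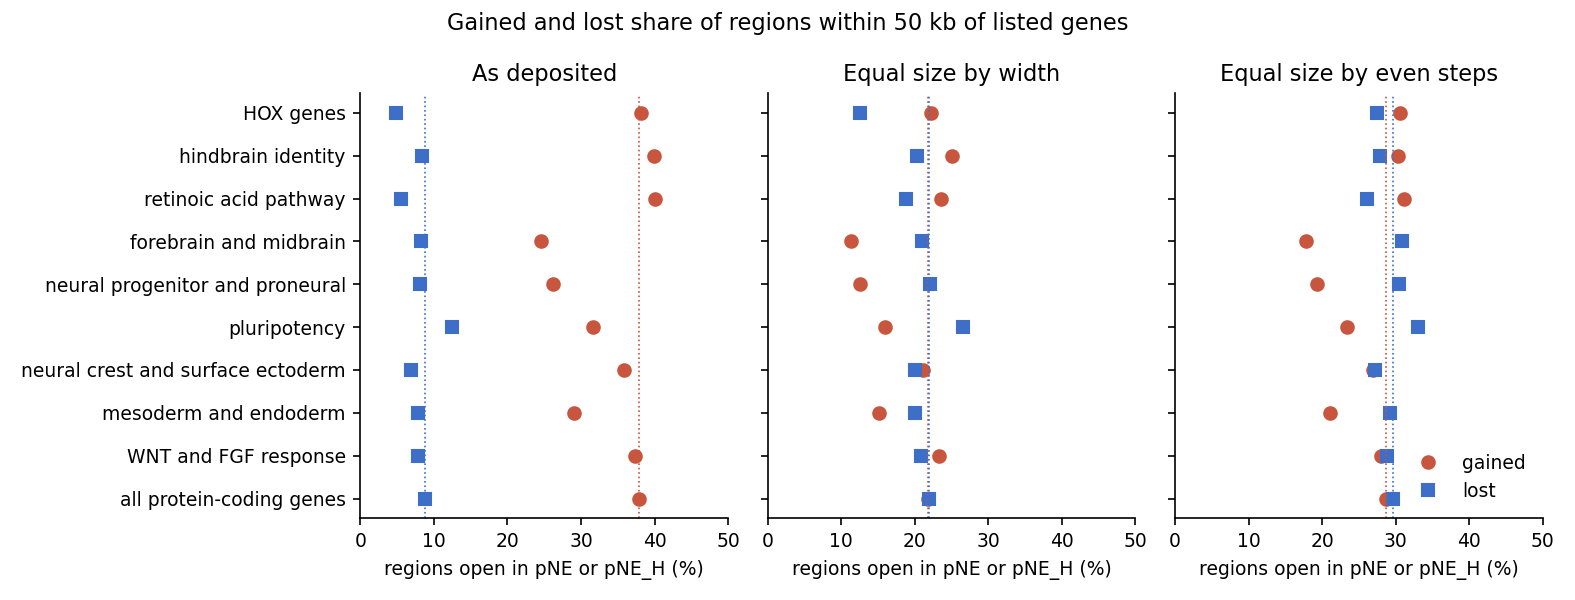
Share (%) of regions within 50 kb of the genes of 9 lists that were gained (circles) or lost (squares) from pNE to pNE_H, with the lists as deposited, at equal size by width, and at equal size by even steps; dotted lines mark all protein-coding genes. Forebrain and midbrain genes lie left of the gained line in each panel (24.6%, 11.3% and 17.8%), and HOX genes lie left of the lost line (4.82%, 12.6% and 27.5%).

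The protein-coding genes with most gained regions were long genes. RBFOX1, a neuronal splicing factor gene of 2474 kb, had 147 gained, 25 lost and 144 kept regions. MACROD2 followed with 134, CSMD1 with 127, PTPRD with 125, LRMDA and NRXN3 with 124 each, CNTNAP2 with 110, ROBO2 with 109 and OPCML with 106. At equal size LRMDA had the largest excess, with 60 gained and 15 lost. LRRC4C had 46 and 10, FHIT 54 and 20, PARD3B 47 and 16, LRP1B 45 and 18 and NELL1 44 and 18. Losses also gathered in long genes. DAB1, an adaptor of reelin signalling, had most lost regions, 28 against 96 gained, and TRAPPC9, NRXN3 and RBFOX1 had 25 each and PTPRN2 24. The lowest balance at equal size was at ARID1B, a chromatin remodelling subunit gene, with 12 gained and 38 lost, followed by TRAPPC9 (25 and 42), ANXA8 (2 and 19), SND1 (13 and 29) and SLIT1 (6 and 22).

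Per 100 kb of window HOXD4 came first in the deposited lists, and 3 of the 10 highest were HOX genes. HOXD4 had 18.7 gained regions per 100 kb, TSHZ1 had 17.3, HOXB4 had 16.5 and HOXA4 had 15.7. The windows of HOXD3, HOXD9, HOXD1, HOXD8 and HOXD10 overlap that of HOXD4 and were counted once, with it. VEGFA, the vascular growth factor gene, had 16.3, IL1B had 15.9, DUSP6 had 15.2 and DACT1, which acts in WNT signalling, had 14.9. LOC124904200 and LOC124902461, at 18.4 and 17.6, complete the 10 highest. At equal size the value was 10.7 at HOXB4, 10.4 at LOC124904200, 9.84 at HOXD4, 8.93 at TSHZ1 and 4.89 at HOXA4, so HOXD4 no longer stood first and HOXA4 was lowest of the 10.

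The widest gained region lay outside genes on chromosome 6 (137602513 to 137604468), 108 kb from OLIG3, a factor of the dorsal hindbrain and spinal cord, with a pNE_H peak of 1951 bp. It was open in pNE_T and pNE_M as well and in none of the other 7 lists. The next, on chromosome 18 (38256469 to 38258424, 1942 bp), was open in the same 3 lists. The next after it lay in the non-coding gene LINC01605 on chromosome 8 (37598340 to 37600329, 1857 bp), 95.5 kb from ZNF703, and was open in 5 lists, all from day 4. The widest lost region lay in LETM2 on chromosome 8 (38402461 to 38405024), 4.50 kb from an end of that gene, where pNE had a peak of 1704 bp and every list except pNE_H was open. The other two, in GALNT17 on chromosome 7 (71465579 to 71467032, 1253 bp) and 87.9 kb from MAP4K4 on chromosome 2 (101608520 to 101609786, 1151 bp), were open in hPSC, DE, aNE, pNE and aNE_T.

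Promoters changed little. Of 21156 RefSeq promoter windows of protein-coding genes, each 250 bases before to 50 bases after a start, 16670 overlapped a region open in pNE or pNE_H, by which a promoter is classed here even where the peak itself lies beside the window. Of these 548 were gained (3.29%) and 145 lost (0.870%), and at equal size 311 (1.89%) and 346 (2.11%). Gained promoters were poorer in G and C than kept ones, with a median of 51.0% against 65.7%, and had a median of 5 CpG against 26. Letter motifs were searched on both strands. TGATNNAT, a HOX-PBX motif, was in 11.9% of gained promoters, 3.34% of kept, 5.23% of all and 11.2% of those closed in both lists. TGANTCA, the AP-1 motif, was in 13.5%, 4.31%, 6.08% and 11.4%, and CAGCTG, an E-box, in 26.5%, 17.5%, 18.1% and 19.1%. For TGATNNAT and TGANTCA the gained promoters thus stood near the closed ones, whose median GC content was 48.0%. The retinoic acid response element was in 16 of all promoters (0.0756%), of which 2 were gained, 0 lost, 11 kept and 3 closed.

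Among the promoters of listed genes, HOXA7, FGFR2, TFAP2A and PAX6 had a gained one and NANOG a lost one, as printed above. Kept promoters numbered 16 in the HOX list, 17 for WNT and FGF response and 10 for crest and surface ectoderm. They numbered 22 for neural progenitors and 9 for pluripotency, and the other lists had none gained or lost. Over all open promoters 3.29% were gained and 0.870% lost, so these few are not read as a result about the lists. The FGFR2 start, of an FGF receptor gene, had 457 covered bases in pNE_H and 305 in DE, and 0 in the other 8 lists. TFAP2A, the AP-2α factor of crest and surface ectoderm, had 220 in pNE_H, 234 in pNE_M, 500 in hPSC and 209 in DE. The HOXA7 promoter had 166 in pNE_H and between 128 and 175 in hPSC, DE, aNE and pNE_M, and PAX6 had 134 in pNE_H and 412 in pNE_M. HOXA7 and PAX6 were closed at equal size, since their pNE_H peaks were narrow. NANOG had 680 covered bases in hPSC, 429 in DE, 296 in aNE, 299 in pNE and 194 in aNE_T, and 0 in aNE_M, aNE_H, pNE_T, pNE_M and pNE_H. At an internal start of OTX2 a promoter window under a 458 bp pNE peak had no pNE_H peak inside it. A pNE_H peak beside the window kept the merged region open as deposited, and the promoter was lost at equal size. Over the merged region at HOXA2, expressed up to the front of rhombomere 2, peaks covered 1858 bases in pNE and 2560 in pNE_H.

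The same start in other media gives the scale. These comparisons share the pNE list, so their values are set side by side only. Equal size shortened pNE_T from 207744 and pNE_M from 209967 peaks, but pNE_H from 302355, so the lists were not shortened alike. At equal size pNE to pNE_T had 60573 gained and 57461 lost regions, pNE to pNE_M 55052 and 55569, and pNE to pNE_H 60654 and 52892. The lost share of pNE regions was 30.8%, 29.8% and 28.4%. HOX genes with more gained than lost were 39, 38 and 31 of 39 (all genes 37.5%, 30.6% and 33.0%). For pNE_H the count was 39 of 39 as deposited (all genes 85.8%). At equal size forebrain and midbrain factors with more gained were 7, 3 and 0 of 20. From aNE to aNE_H, which uses neither the pNE nor the pNE_H list and was left at 162041 and 196961 peaks, 1 of 39 HOX genes had more gained and 36 more lost, where 56.7% of all genes had more gained. Forebrain and midbrain factors there had 11 of 20 with more gained, near the share of all genes, and 6 with more lost. Their gained share was below that of all genes from either origin, at 11.3% against 21.8% from pNE and 23.5% against 28.7% from aNE. The HOX genes thus stood above the share of all genes from pNE and below it from aNE, each seen in 1 pair of lists, and the difference was not tested.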

How the data were processed

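Open chromatin was measured by OmniATAC-seq in H1 cells, 3 libraries per group. The deposited files are peak positions (chromosome, start and end), 1 list per group, with no header, score or count. Per the submitters' processing notes the build is hg38, and the tools named there include Bowtie2, MACS2 and bedtools, with no role given. The peak threshold and how the authors combined the 3 replicates are not given in the sources used here. Both bear on the number of peaks in each list.

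Peaks on chromosomes 1 to 22 of all 10 lists were merged at 1 bp of overlap. Equal list size kept the 199638 widest peaks of each longer list. Gene positions, symbols and promoter sequences came from RefSeq tables (GRCh38.p14). Nearness uses either end of a gene, within 1 kb, and gene windows run 50 kb to each side. Genes named beyond the 9 lists were the 10 with most gained regions, the 10 with most per 100 kb among those with at least 10 gained, the 10 with the largest and the 5 with the lowest gained minus lost at equal size, and the 5 with most lost. Some genes that these rules and lists name are not reported here. Regions named were the 3 widest gained and lost, and the widest gained in each HOX cluster. Of the list genes the X-linked CDX4 and SOX3 were not counted, and CRIPTO was matched through TDGF1. The members and gene lists were chosen with earlier results of these data known. No test was made, since no list has replicate values. Wilson intervals at 95% cover the sampling of regions only. The code was tested on simulated lists with known states. Motifs in the peaks were not analysed here. Python 3.11.15, numpy 2.4.6 and pandas 2.3.3 were used.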

Additional observations from a re-analysis of the deposited data

Results flagged for a closer look

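In HOXA and HOXD bases inside peaks moved in opposite directions from day 2 to day 4 in hindbrain medium, depending on day 2 origin. In HOXB they rose from pNE to pNE_H and were nearly unchanged from aNE (15672) to aNE_H (15579). In HOXC they rose from both origins, from 11278 to 16594 and from 11308 to 11508. In HOXA they increased by 6022 from pNE to pNE_H and changed by -2638 from aNE to aNE_H. In HOXB the values were 11028 and -93, and in HOXD 7452 and -1119. Each value rests on 1 pair of lists, and the difference was not tested. The pNE_H list is also 1.51 times as long as the pNE list.

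Chromosome X, which the comparison leaves out, had 4556 gained, 948 lost and 5536 kept regions, or 41.3% gained and 8.59% lost, beside 41.1% and 8.30% on chromosomes 1 to 22.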

How the results depend on the processing

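No paired analysis was possible because the lists hold no value per replicate, and for the same reason no replicate could be left out. List length set the counts. At equal size by width gained regions were 60654, lost 52892 and the Jaccard index 0.540. With all lists at the shortest length, 162041 peaks, they were 49988, 44507 and 0.535. With peaks left out at even steps along the genome, chosen after seeing the data, they were 86315, 77707 and 0.400. The upper 50% of each list by width gave 65814 gained, 14188 lost, 82501 kept and 0.508. With 50% of a region required to be covered kept regions were 102277 and the index 0.361. The index was 0.525 with windows of 500 bp at peak midpoints, 0.496 with only the pNE and pNE_H lists merged, 0.477 away from gene ends, and 0.525 without the 26505 pNE_H peaks narrower than any pNE peak, the last also chosen after seeing the data. Adding chromosomes X and Y moved none of the counts by over 1.5 times.

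The share of gained regions near a gene end was 7.58% at equal size, 7.73% at the shortest length, 7.94% with 50% covered, 8.34% with windows and 8.38% in the upper 50%. The share open in pNE_H alone was 28.8% at equal size, 28.0% at the shortest length, 39.8% with even steps, 41.6% with 50% covered, 35.5% with windows, 35.4% without the narrowest peaks, 39.0% away from gene ends and 37.4% in the upper 50%. The share open in hPSC or DE was, in that order, 17.9%, 17.8%, 19.2%, 17.8%, 22.7%, 21.0%, 20.2% and 20.4%. The share open in aNE_H was 18.1% at equal size, 18.8% at the shortest length, 14.4% with 50% covered, 16.0% with windows, 15.9% without the narrowest peaks and 15.7% in the upper 50%. The share of lost regions open in DE was 49.1%, 49.4%, 44.4%, 54.3%, 52.6% and 54.9% in that order, and 57.7% with even steps.

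Of all genes 33.0%, 32.3% and 26.5% had more gained than lost regions at equal size, the shortest length and even steps. Listed genes with more gained, in that order, were 10, 10 and 9 of 19 for hindbrain identity and 9, 9 and 6 of 20 for the retinoic acid pathway. For forebrain and midbrain they were 0, 3 and 0 of 20. They were 4, 8 and 3 of 19 for neural progenitors, 2, 3 and 2 of 15 for pluripotency, 7, 7 and 7 of 16 for neural crest and surface ectoderm, 6, 4 and 3 of 14 for mesoderm and endoderm, and 10, 9 and 8 of 20 for WNT and FGF response. For HOX genes the count left its 1.5-fold range with even steps, at 17 of 39. Gains in the HOX clusters at equal size were 5 in HOXA, 12 in HOXB, 5 in HOXC and 10 in HOXD. Windows of 10 kb or assignment to the nearest gene end kept every list's count within 1.5 times.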
